A study of Homo sapiens with 6 samples.

Results

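The cell line HCT116, an established line from a human colorectal cancer, was compared with DKO1, its derivative in which the DNA methyltransferase genes DNMT1 and DNMT3B were knocked out, and 59 genes had at most 33.3% of their parental RNA level in DKO1. They were chosen from 57820 human rows of the deposited table by their own values. A gene entered when its mean over the 3 parental (WT) samples was at least 3 TPM (a length-corrected share of all transcripts), its mean over the 3 DKO1 samples was at most 33.3% of that, and every DKO1 value lay below every WT value. Of the 9830 human rows with a WT mean of at least 3 TPM, 69 (0.702%) met these conditions, and 10 of them were left out by name, which gives the 59. Because the WT and DKO1 values chose the genes, those values are given as a description, without a test.

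DNA methylation is the addition of a methyl group to cytosine, in mammals mostly where a cytosine is followed by a guanine (a CpG). DNMT1 copies the marks onto new strands after replication, and DNMT3B places marks on unmethylated DNA. Methylation of promoters rich in CpGs is known for keeping genes silent, and the loss of methylation is best known for raising silent genes. Genes with lower RNA after its loss are the subject here.

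The labels give no treatment and separate 2 groups by genotype, 3 samples of HCT116 WT and 3 of DKO1, numbered 1 to 3 in each. DKO1 is a single derived line of its parent, so effects of the knockouts and other differences of that line cannot be told apart. Whether samples of a group were separate cultures is not in the labels, so each p-value rests on a spread between samples that may be technical. In bulk RNA such as this, fewer cells that express a gene and less RNA per cell cannot be told apart.

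DNMT1 itself lay between 231.01 and 249.97 TPM in WT and between 30.8 and 46.8 TPM in DKO1, and DNMT3B between 6.77 and 8.22 TPM in WT and between 3.56 and 4.86 TPM in DKO1. Neither gene's WT and DKO1 values overlapped, and which stretch of either gene was removed is not given in the sources used here. Depth per sample is unknown, since TPM does not carry it. Of 10 markers of colon epithelium, 7 had a mean of at least 1 TPM in WT and 6 in DKO1. The gut markers CDH17, VIL1 and LGALS4 were below 0.4 TPM in both. The sum over all 10 was 942 to 1178 TPM in WT and 700 to 930 TPM in DKO1. EPCAM went from 488 to 455 TPM, KRT8 from 382 to 219 TPM, KRT18 from 143 to 87.8 TPM and CDX2 from 1.31 to 0.643 TPM. CDH1 (2.97 to 9.82 TPM), KRT19 (12.1 to 20.8 TPM) and KRT20 (2.46 to 3.59 TPM) had higher means in DKO1. Summed markers of other cell types were higher in DKO1 for every type read, over 6 germ cell markers from 0.27 to 0.30 TPM in WT against 27.9 to 47.2 TPM in DKO1. The sums were 0.36 to 0.77 against 4.21 to 5.03 TPM over 9 blood markers and 1.18 to 1.86 against 3.71 to 4.17 TPM over 9 fibroblast markers. They were 4.04 to 4.88 against 7.58 to 10.4 TPM over 6 neural markers and 0.15 to 0.46 against 0.48 to 0.91 TPM over 5 endothelial markers. Most of the germ cell sum was MAEL, with a DKO1 mean of 33.8 TPM. Single markers did not all follow their sums: LUM, COL3A1, HBA1, GFAP, VWF, TEK and EMCN had lower means in DKO1. The part of these differences in any result below was not tested.

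Summed over all 59 genes, the level was 3398, 3469 and 3234 TPM in WT replicates 1, 2 and 3, and 675, 794 and 915 TPM in DKO1 replicates 1, 2 and 3. The median gene of the set stood at 23.4% of its WT mean in DKO1, against 98.8% over all genes with a WT mean of at least 3 TPM. In 9 genes the DKO1 mean was at most 10% of the WT mean, in 25 at most 20%, and in the other 34 between 20% and 33.3%. Most kept measurable RNA: the DKO1 mean was below 1 TPM in 12 genes and at least 10 TPM in 14. Parental levels ranged from 3.23 TPM for IRAG1 to 569 TPM for CYP24A1, with 10 genes at 100 TPM or more and 21 below 10 TPM. Of the 59, 42 are annotated as protein-coding, 71.2% against 90.2% of all genes at that WT level.

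**Figure D1:**
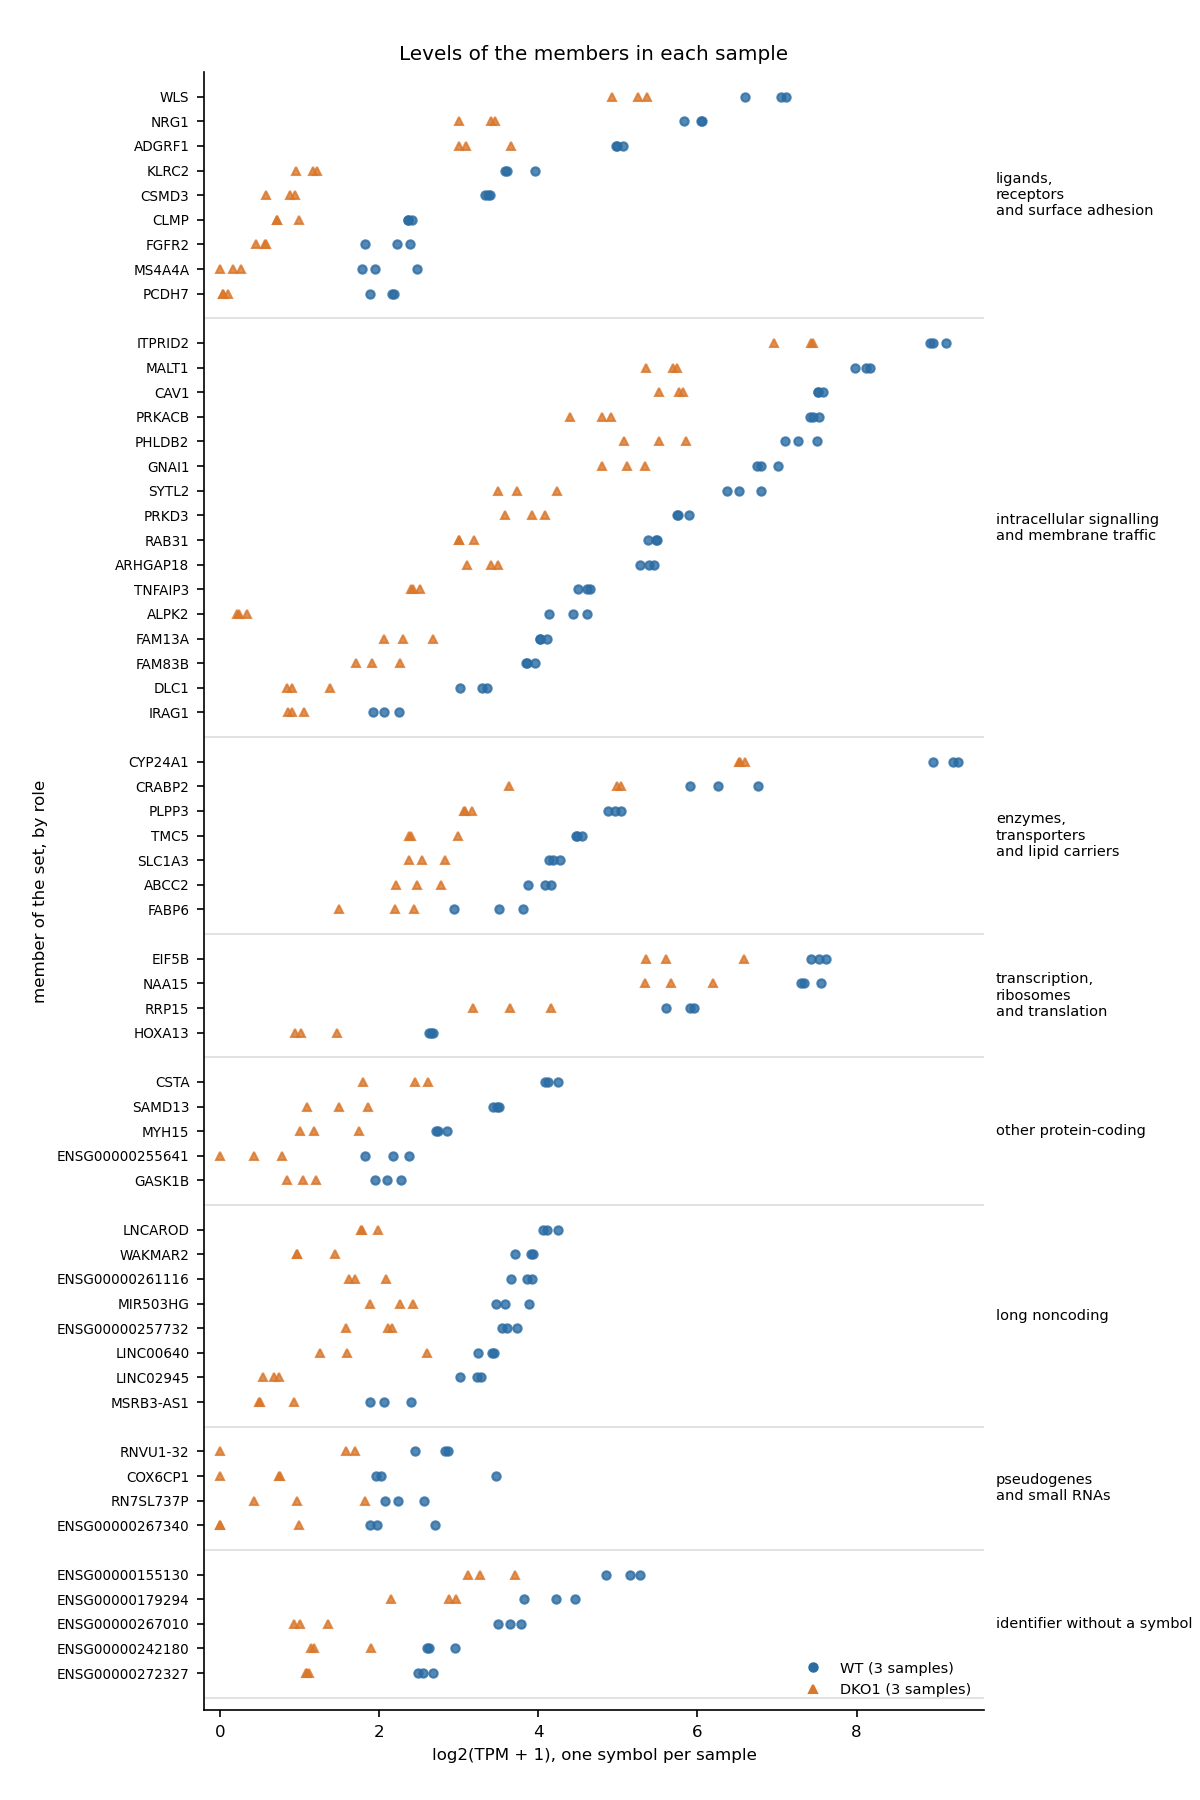
Level of the genes of the set in each of the 6 samples, as log2(TPM + 1) on the x axis, with 1 row per gene, grouped by role. Circles are the 3 WT samples and triangles the 3 DKO1 samples; in every row the triangles lie to the left of the circles, as the rule for choosing the genes requires, and the gap between the nearest WT and DKO1 values is widest for ALPK2 and narrowest for RN7SL737P.

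The 3 DKO1 samples did not sit at the same depth below WT. Relative to each gene's WT mean, the median over the set was 18.6% in DKO1 replicate 1, 21.8% in replicate 2 and 24.9% in replicate 3. Replicate 3 was the highest of the 3 in 29 genes and replicate 1 the lowest in 31. In replicate 3, 17 genes stood above 33.3% of their WT mean, against 3 and 6 in replicates 1 and 2. The noncoding gene LINC00640 is an example, at 9.85, 9.66 and 8.43 TPM in WT and 1.40, 2.03 and 5.05 TPM in DKO1. EIF5B was at 39.8, 47.6 and 95.2 TPM in DKO1 against 171 to 196 TPM in WT. The share of TPM in mitochondrially encoded genes also differed, at 26.9%, 27.7% and 21.2% in DKO1 replicates 1, 2 and 3 and 19.7% to 20.1% in WT, and its part in the difference was not tested. The median coefficient of variation between replicates was 10.1% in WT and 27.1% in DKO1 for the set, against 9.29% and 18.0% over all genes with a WT mean of at least 3 TPM.

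**Figure D2:**
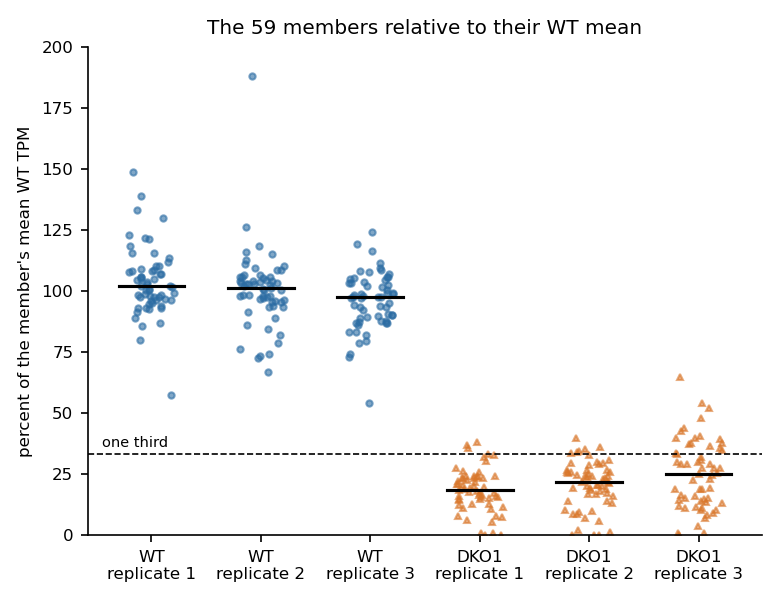
Value of each of the 59 genes in each sample as a percent of that gene's mean WT TPM (y axis), by sample (x axis). Each symbol is a gene, the bars are medians and the dashed line marks 33.3%; the DKO1 medians are 18.6%, 21.8% and 24.9%, and 17 genes of DKO1 replicate 3 lie above the line.

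Since the rule reads all 6 samples, it was applied again to 4 samples at a time, leaving out the pair with the same replicate number, and the left-out pair was then read. Without pair 1, 52 genes were chosen, and 47 of them (90.4%) stood at 33.3% of WT or less in pair 1, as did 2.0% of all genes at 3 TPM or more in that WT sample. Without pair 2, 43 of 57 (75.4%) did, against 1.64%. Without pair 3, 107 genes were chosen and 42 (39.3%) did, against 0.778%. The chosen genes were thus more often this low than all genes in each left-out pair, and least often in pair 3. The 2 shares are not fully alike, since the chosen genes did not have to reach 3 TPM in the left-out WT sample. Genes at 0 in both left-out samples, such as RNU1-16P in pair 2, counted as not this low. The left-out samples come from the same lines as the others, so these shares describe repeats of the same lines only. A level of 50% or less of WT was reached in pairs 1, 2 and 3 by 94.2%, 87.7% and 61.7% of the chosen genes and by 9.33%, 6.7% and 1.99% of all genes. Members missing the threshold in the left-out pair 3 include EIF5B, at 51.7% of WT there, PHLDB2 at 41.9% and NAA15 at 45.8%. The rule itself was proposed with all 6 samples in view.

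**Figure D3:**
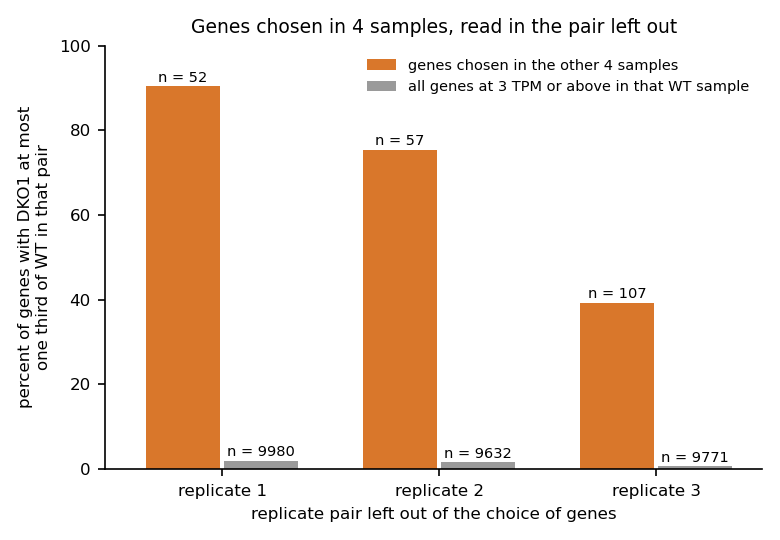
Percent of genes whose DKO1 value was at most 33.3% of the WT value (y axis) in the replicate pair left out of the choice (x axis). Orange bars are genes chosen in the other 4 samples and grey bars all human genes at 3 TPM or more in that WT sample, with the number of genes above each bar; the orange bars read 90.4%, 75.4% and 39.3% and the grey bars at most 2.0%.

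Some of the 59 genes lie next to each other. In the reference gene order, only genes that passed the filter of the test were counted. There, 5 pairs of members were immediate neighbours, taking in 10 of the 54 members that could be placed. The gene models of 2 of these pairs overlap. No such count was made for other genes, so whether 5 pairs are many was not tested. One pair is ALPK2, an alpha-type protein kinase gene, and MALT1, the paracaspase that relays antigen receptor and G protein-coupled receptor signals to NF-kB, on chromosome 18. ALPK2 was at 23.4, 20.7 and 16.6 TPM in WT and 0.18, 0.27 and 0.16 TPM in DKO1, the lowest remaining share of any member. MALT1 was at 276, 287 and 250.25 TPM in WT and 39.9, 52.3 and 50.7 TPM in DKO1, 5.69-fold lower. That all values of the genotypes lay apart in both genes is required by the rule.

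On chromosome 1, PRKACB, a catalytic subunit of the cyclic AMP-dependent protein kinase, stands beside SAMD13, a small gene with a SAM domain. PRKACB was at 169, 184 and 174 TPM in WT and 20.1, 29.3 and 27.0 TPM in DKO1, 6.9-fold lower. SAMD13 was at 10.2, 9.81 and 10.3 TPM in WT and 1.82, 2.62 and 1.14 TPM in DKO1, 5.44-fold lower. The WT replicates of both genes lay close together, and the DKO1 samples were more spread relative to their mean.

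On chromosome 6, TNFAIP3, which encodes the NF-kB inhibitor A20, and WAKMAR2, a long noncoding RNA, overlap on opposite strands. TNFAIP3 was at 24.2, 21.6 and 23.5 TPM in WT and 4.30, 4.73 and 4.38 TPM in DKO1. WAKMAR2 was at 14.04, 14.2 and 12.04 TPM in WT and 1.72, 0.96 and 0.95 TPM in DKO1. The sources used here do not say whether counting used the strand, so reads of these overlapping genes cannot be told apart with certainty. FAM83B, a scaffold protein of growth factor signalling on the same chromosome, went from 13.8 ± 0.66 to 2.95 ± 0.78 TPM. Beside it, the noncoding gene ENSG00000261116 went from 13.1 ± 1.32 to 2.53 ± 0.64 TPM (mean ± SD, n = 3). ENSG00000261116 lies on the same strand and is classed as sense-overlapping, though its gene model and that of FAM83B do not overlap in the reference. Whether its values are independent of FAM83B was not tested. KLRC2, a receptor gene of natural killer cells on chromosome 12, and ENSG00000255641 overlap and lie in a family of near-identical genes, so their split is uncertain. KLRC2 was at 14.5, 11.2 and 11.02 TPM in WT and 0.94, 1.25 and 1.33 TPM in DKO1.

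Promoters of 6 of these 10 neighbouring members, those matched in the table used, are shown because the genes stand side by side and the knocked-out enzymes act on CpGs. Each is the 250 bases before an annotated start in RefSeq (GRCh38.p14), 5′ to 3′ on the gene's strand, in lower case with every CpG in capitals.
ALPK2: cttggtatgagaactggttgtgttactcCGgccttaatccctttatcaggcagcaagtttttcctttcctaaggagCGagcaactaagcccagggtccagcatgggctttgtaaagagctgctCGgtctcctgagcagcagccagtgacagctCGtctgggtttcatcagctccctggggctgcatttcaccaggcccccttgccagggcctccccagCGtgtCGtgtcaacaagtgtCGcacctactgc
MALT1: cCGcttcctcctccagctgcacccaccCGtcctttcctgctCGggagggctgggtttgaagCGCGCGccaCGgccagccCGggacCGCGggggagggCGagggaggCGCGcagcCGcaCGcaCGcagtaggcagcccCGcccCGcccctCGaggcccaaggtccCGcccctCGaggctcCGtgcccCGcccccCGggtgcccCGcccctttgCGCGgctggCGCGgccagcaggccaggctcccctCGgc
PRKACB, first window: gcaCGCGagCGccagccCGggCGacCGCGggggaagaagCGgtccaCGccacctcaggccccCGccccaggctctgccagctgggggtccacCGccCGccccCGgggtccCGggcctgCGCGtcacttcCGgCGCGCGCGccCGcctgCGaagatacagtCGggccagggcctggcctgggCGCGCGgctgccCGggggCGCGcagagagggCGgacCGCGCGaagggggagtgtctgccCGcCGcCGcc
PRKACB, second window: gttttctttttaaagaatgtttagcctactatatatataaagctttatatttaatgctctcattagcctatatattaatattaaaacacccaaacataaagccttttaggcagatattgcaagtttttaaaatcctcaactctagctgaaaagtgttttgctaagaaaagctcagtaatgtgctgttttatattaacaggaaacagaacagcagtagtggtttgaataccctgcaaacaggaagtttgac
SAMD13, first window: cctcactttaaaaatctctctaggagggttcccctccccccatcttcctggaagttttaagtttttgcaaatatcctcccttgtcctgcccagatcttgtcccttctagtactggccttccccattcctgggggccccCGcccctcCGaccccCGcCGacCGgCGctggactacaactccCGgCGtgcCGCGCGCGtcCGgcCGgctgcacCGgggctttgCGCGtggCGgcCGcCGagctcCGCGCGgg
SAMD13, second window: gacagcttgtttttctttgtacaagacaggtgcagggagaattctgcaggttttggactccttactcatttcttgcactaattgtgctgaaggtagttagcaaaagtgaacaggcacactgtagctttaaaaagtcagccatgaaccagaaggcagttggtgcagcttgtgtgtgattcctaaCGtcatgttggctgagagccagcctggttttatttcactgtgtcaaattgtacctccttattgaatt
TNFAIP3: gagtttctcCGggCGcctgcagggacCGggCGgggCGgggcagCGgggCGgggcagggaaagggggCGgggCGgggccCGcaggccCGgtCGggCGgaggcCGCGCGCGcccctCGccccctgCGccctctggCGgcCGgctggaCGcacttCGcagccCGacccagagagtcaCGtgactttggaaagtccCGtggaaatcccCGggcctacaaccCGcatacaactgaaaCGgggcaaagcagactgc
FAM83B: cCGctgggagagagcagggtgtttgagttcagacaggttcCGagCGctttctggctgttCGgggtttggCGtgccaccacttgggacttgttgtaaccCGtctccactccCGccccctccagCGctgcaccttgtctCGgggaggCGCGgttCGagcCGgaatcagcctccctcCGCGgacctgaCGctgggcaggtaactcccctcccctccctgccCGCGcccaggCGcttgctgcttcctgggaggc

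The windows differ widely in CpG content. That of ALPK2 (chr18:58629092-58629341, minus strand) holds 7 CpGs and that of MALT1 (chr18:58671215-58671464, plus strand) 30. PRKACB has 5 annotated windows, of which the 2 shown (chr1:84077829-84078078 and chr1:84144021-84144270, plus strand) hold 37 and 0, and the others 3, 5 and 0. The 2 windows of SAMD13 (chr1:84298288-84298537 and chr1:84301458-84301707, plus strand) hold 23 and 1. The windows of TNFAIP3 (chr6:137867009-137867258, plus strand) and FAM83B (chr6:54846521-54846770, plus strand) hold 29 and 19. Over all 35116 windows of the table the median was 11 CpGs, with quartiles of 3 and 23, and 93.9% held at least 1. TPM is per gene, so which start a gene used is unknown, and methylation was not analysed here. A planned comparison of promoter CpG content over the whole set is void, because windows were matched for 34 of the 59 members (57.6%), below the minimum of 80%.

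Among the 9 members that encode ligands, receptors or surface adhesion proteins, the highest parental level was that of WLS, the carrier that takes Wnt proteins to the cell surface. WLS was at 138, 95.8 and 131 TPM in WT and 40.2, 29.3 and 37.2 TPM in DKO1, 3.42-fold lower, with replicate 2 the lowest in both groups. NRG1, a growth factor that binds ERBB3 and ERBB4, was at 65.9, 65.0 and 56.1 TPM in WT and 9.59, 10.01 and 7.03 TPM in DKO1, 7.02-fold lower. FGFR2, a receptor tyrosine kinase for fibroblast growth factors, was at 4.23, 3.68 and 2.54 TPM in WT and 0.37, 0.48 and 0.49 TPM in DKO1. The SD within DKO1 was 1.61 TPM for NRG1 and 0.067 TPM for FGFR2, and the distance of both from the WT values is part of the rule. ADGRF1, an adhesion G protein-coupled receptor, was at 30.7, 30.6 and 32.4 TPM in WT and 6.99, 7.51 and 11.7 TPM in DKO1, 3.58-fold lower.

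The other surface genes were low already in WT. PCDH7, a protocadherin, was at 3.48, 3.56 and 2.71 TPM in WT and 0.03, 0.07 and 0.03 TPM in DKO1. MS4A4A, a membrane protein known from macrophages, was at 4.58, 2.45 and 2.87 TPM in WT and 0.20, 0 and 0.12 TPM in DKO1. Both are among the lowest remaining shares of the set, and at such DKO1 levels no fold is given. CSMD3, a very large membrane protein, was 12.3-fold lower, from 9.29 ± 0.20 to 0.757 ± 0.23 TPM, and CLMP, a junction protein with a known role in gut development, 5.54-fold lower, from 4.21 ± 0.12 to 0.760 ± 0.20 TPM (mean ± SD, n = 3).

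Relatives of these surface members that are not in the set were tested with limma, in which 1306 of 13604 genes (9.6%) were lower in DKO1 and 2558 (18.8%) higher at an adjusted p below 0.05. The balance of these calls depends on the scaling: 66.2% of calls were higher as deposited, 48.4% after quantile normalization, 49.0% with median-ratio factors from untested genes too, and 76.5% once mitochondrial and spike-in rows were removed, which also took the median over all tested genes from 0.07 to 0.19 on the log2 scale. The number lower was 604, 524 and 550 without WT replicates 1, 2 and 3, 842 without DKO1 replicate 1 and 2079 without DKO1 replicate 3, and the number higher was 1705 without WT replicate 3. Of 9 other tested EGF family ligands and ERBB receptors, 4 were higher and none lower, with EREG, which met the value conditions and was left out by name, not counted. EGFR, the EGF receptor, was at 11.1, 10.9 and 9.78 TPM in WT and 21.4, 24.1 and 21.95 TPM in DKO1 (log2 fold change 1.02, SE 0.13, adjusted p = 0.00103). The EGF receptor ligands HBEGF (log2 fold change 1.23, adjusted p = 0.000759) and TGFA (0.96, adjusted p = 0.00255) were higher too, so these relatives of NRG1 moved in the other direction. EGF, the fourth called gene, went from 0.627 to 1.73 TPM and lost its call in 4 of 15 alternative settings, with an adjusted p of up to 0.702.

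For FGFR2 the pattern among relatives was similar. Of 10 other tested fibroblast growth factor genes and receptors, 4 were higher and none lower. FGFR3 was at 2.41, 1.98 and 1.67 TPM in WT and 6.7, 7 and 7.8 TPM in DKO1 (log2 fold change 1.44, SE 0.16, adjusted p = 0.000513). FGF19, an endocrine ligand of the gut, and FGF12 were also higher, with log2 fold changes of 1.10 and 1.40 (adjusted p = 0.00394 and 0.000658). Around PCDH7, 6 of 11 other tested cadherins were higher and 1 lower. CDH2 was listed at 0 in all 3 WT samples and stood at 12.6, 11.2 and 8.48 TPM in DKO1, and CDH1, the main epithelial cadherin, rose from 2.97 ± 0.49 to 9.82 ± 0.28 TPM (adjusted p = 0.000418). FAT1, a giant cadherin, was the one lower, from 123 ± 11.7 to 60.2 ± 7.18 TPM (adjusted p = 0.0011). Beside ADGRF1, 5 of 28 other adhesion and orphan receptors (17.9%) were higher and 4 (14.3%) lower, against 18.8% and 9.6% of all tested genes. LPAR3, a receptor for lysophosphatidic acid, fell from 29.1 ± 1.17 to 10.3 ± 0.61 TPM (adjusted p = 0.000159). GPR176 rose from 0.533 ± 0.05 to 8.22 ± 0.76 TPM (adjusted p = 2.21e-05).

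The largest group of members, 16 genes, acts in intracellular signalling and membrane traffic, with a median of 22% of the WT level left. Abundant genes of the group differed in what was left, from 14.5% for PRKACB and 17.6% for MALT1 to 30.4% for ITPRID2. ITPRID2, which binds inositol trisphosphate receptors, was at 486, 557 and 499 TPM in WT and 124, 174 and 171 TPM in DKO1, 3.29-fold lower. CAV1, the main coat protein of caveolae, was at 183, 190 and 182 TPM in WT and 44.6, 53.6 and 55.5 TPM in DKO1, 3.61-fold lower. PHLDB2, which anchors microtubules at the cell cortex, was at 153, 180 and 136 TPM in WT and 32.9, 44.9 and 57.1 TPM in DKO1, 3.48-fold lower. In these 3 genes DKO1 replicate 1 was the lowest sample of all.

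GNAI1, an inhibitory G protein alpha subunit, was at 106, 110.3 and 128 TPM in WT and 26.9, 39.4 and 33.6 TPM in DKO1, 3.44-fold lower. SYTL2, an effector of RAB27 in vesicle docking, was at 82.1, 91.3 and 110 TPM in WT and 10.3, 12.3 and 17.9 TPM in DKO1, 6.99-fold lower. PRKD3, a protein kinase D, was at 52.6, 58.2 and 53.1 TPM in WT and 10.95, 14.1 and 15.9 TPM in DKO1, 4.0-fold lower. In all 3 the DKO1 values lay below the WT values, as the rule requires. RAB31, a small GTPase of endosomal traffic, was 5.79-fold lower, from 42.7 ± 1.84 to 7.38 ± 0.66 TPM (mean ± SD, n = 3).

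GTPase-activating proteins were also present. DLC1, a RhoGAP described as a tumour suppressor, was at 9.27, 7.10 and 8.81 TPM in WT and 1.61, 0.79 and 0.87 TPM in DKO1, 7.7-fold lower. ARHGAP18, another RhoGAP, was 4.43-fold lower, from 40.6 ± 2.59 to 9.18 ± 1.39 TPM, and FAM13A, which carries a RhoGAP domain, 3.74-fold lower, from 15.6 ± 0.62 to 4.16 ± 1.13 TPM. IRAG1, which links cyclic GMP to inositol trisphosphate receptors, was the lowest in WT at 3.23 ± 0.48 TPM and stood at 0.923 ± 0.14 TPM in DKO1 (mean ± SD, n = 3).

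The partners of these signalling members gave a mixed picture, in gene lists drawn up after the members were known. PRKACA, another catalytic subunit gene of the cyclic AMP-dependent kinase, did not pass the test (31.7 ± 3.13 TPM in WT, 42.6 ± 6.59 TPM in DKO1, adjusted p = 0.08). Nor did any of the 4 tested regulatory subunit genes. PKIB, an inhibitor of the kinase, was at 7.84, 6.48 and 6.5 TPM in WT and 40.4, 55.2 and 33.5 TPM in DKO1 (log2 fold change 2.45, SE 0.20, adjusted p = 0.000115). In all, 1 of 8 other tested genes of this list was higher and none lower.

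Of 8 other tested G alpha genes, 2 were higher and none lower. GNAI2, the closest relative called, was at 24.3, 14.2 and 22.2 TPM in WT and 63.3, 33.0 and 56.4 TPM in DKO1 (log2 fold change 1.27, SE 0.29, adjusted p = 0.0151), and without DKO1 replicate 1 its adjusted p was 0.0586. The call of the other, GNAZ, was lost in 5 of 15 alternative settings, among them leaving out any 1 of the WT samples, with an adjusted p of up to 0.789. Of the protein kinase D genes, PRKD1 rose from 0.157 ± 0.09 to 3.71 ± 1.13 TPM, 2.00 on the log2 scale (adjusted p = 0.000374), while PRKD2 stood at 4.57 ± 2.18 TPM in WT against 4.57 ± 2.03 TPM in DKO1 (adjusted p = 0.975). Next to CAV1, its partner CAV2 was at 83.2, 79.8 and 84.5 TPM in WT and 43.1, 44.2 and 55.8 TPM in DKO1 (log2 fold change −0.79, SE 0.13, adjusted p = 0.00375), the same direction as CAV1.

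MALT1 and TNFAIP3 both belong to NF-kB control, the first as an activator and the second as an inhibitor. Of 17 other tested genes of that list, 4 were higher and none lower. Of the 4, NFKB2 lost its call in 8 of 15 alternative settings, with an adjusted p of up to 0.143, and CYLD in 2, without WT replicate 1 or 3, with an adjusted p of up to 0.0534. BCL10, the adaptor that carries MALT1, was at 20.6 ± 3.10 TPM in WT against 25.9 ± 3.39 TPM in DKO1 (adjusted p = 0.176). NFKBIA, an NF-kB inhibitor and target, was at 16.0, 16.1 and 15.9 TPM in WT and 45.5, 51.8 and 32.4 TPM in DKO1 (log2 fold change 1.35, SE 0.18, adjusted p = 0.00131). BIRC3, another target, rose from 1.54 ± 0.12 to 6.57 ± 1.42 TPM (adjusted p = 0.00063). TNFAIP3, itself known as an NF-kB target, was at 19.4% of its WT level.

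Among small GTPase and RAS regulator genes other than RAB31 and ARHGAP18, 10 of 29 (34.5%) were higher and 2 (6.9%) lower. RERG, a RAS-like gene, rose from 0.063 ± 0.05 to 15.2 ± 2.12 TPM (adjusted p = 7.73e-06), and ARHGAP29, a RhoGAP, fell from 255 ± 9.35 to 90.4 ± 21.4 TPM (adjusted p = 0.000694). DLC1 is also listed among target genes of YAP and TEAD, the transcription factors that answer to cell tension, where 5 of 23 other tested genes were higher and 4 lower. NT5E, an ectonucleotidase, rose from 17.2 ± 2.16 to 79.0 ± 6.85 TPM (adjusted p = 4.09e-05) and CCN1, a matricellular protein, fell from 46.0 ± 9.10 to 22.1 ± 1.35 TPM (adjusted p = 0.0036). In the YAP and TEAD list 21.7% of the other tested genes were higher and 17.4% lower, beside 18.8% and 9.6% of all tested genes. No reading of DLC1 is drawn from these counts.

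Of the 7 enzymes, transporters and lipid carriers, CYP24A1, the enzyme that breaks down active vitamin D, was the most abundant gene of the whole set. CYP24A1 was at 619, 591 and 496 TPM in WT and 90.8, 95.5 and 91.9 TPM in DKO1, 6.13-fold lower. The DKO1 values lay within a few TPM of each other. VDR, the vitamin D receptor, and its partner RXRA were slightly higher (log2 fold changes 0.48 and 0.47, adjusted p = 0.042 and 0.0425), and these calls were lost in 9 and 11 of 15 alternative settings, with adjusted p-values up to 0.632 and 0.837. CYP27B1, which makes active vitamin D, did not pass the test (5.06 ± 0.53 TPM in WT, 6.77 ± 1.03 TPM in DKO1, adjusted p = 0.158). In the wider list of dehydrogenases, cytochromes P450 and conjugating enzymes, 9 of 33 other tested genes (27.3%) were higher and 3 (9.09%) lower. Of all tested genes 18.8% were higher and 9.6% lower. GSTM3, a glutathione transferase, rose from 0.193 ± 0.23 to 7.18 ± 2.00 TPM (adjusted p = 0.000126) and the microsomal MGST1 fell from 274 ± 12.4 to 142 ± 12.6 TPM (adjusted p = 0.000595).

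CRABP2, a carrier of retinoic acid, was uneven between replicates, at 108, 59.1 and 75.6 TPM in WT and 30.7, 11.4 and 32.0 TPM in DKO1, with replicate 2 the lowest in both groups. None of 4 other tested retinoid-binding and receptor genes was called. PLPP3, which dephosphorylates lipid phosphates outside the cell, was at 30.3, 28.3 and 31.8 TPM in WT and 7.95, 7.41 and 7.46 TPM in DKO1, 3.96-fold lower. Its relative PLPP1 went the other way, at 11.5, 8.93 and 8.80 TPM in WT and 26.9, 27.8 and 21.3 TPM in DKO1 (log2 fold change 1.29, SE 0.17, adjusted p = 0.0011).

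SLC1A3, a glutamate transporter, was 3.46-fold lower, from 17.4 ± 0.83 to 5.03 ± 0.98 TPM (mean ± SD, n = 3). Of 27 other tested amino acid and sugar transporters, 6 (22.2%) were higher and 4 (14.8%) lower, beside 18.8% and 9.6% of all tested genes. SLC38A2, a glutamine carrier, was at 357, 378 and 351 TPM in WT and 159, 232 and 227 TPM in DKO1 (log2 fold change −0.83, adjusted p = 0.00759), and SLC2A3, a glucose transporter, rose from 1.52 ± 0.22 to 11.5 ± 1.67 TPM (adjusted p = 6.85e-05). ABCC2, an efflux pump for conjugates, was 3.31-fold lower, from 15.5 ± 1.70 to 4.67 ± 1.11 TPM. Among 22 other NRF2 targets and aldo-keto reductases, 4 (18.2%) were higher and 2 (9.09%) lower, shares close to those of all tested genes. The carbonyl reductase CBR1 rose from 0.057 ± 0.10 to 8.91 ± 1.83 TPM (adjusted p = 2.26e-05), and TXNRD1, a thioredoxin reductase, fell from 375 ± 17.3 to 209 ± 19.1 TPM (adjusted p = 0.00108). TMC5, a channel-like membrane protein, was 4.22-fold lower, from 21.6 ± 0.63 to 5.13 ± 1.58 TPM, and FABP6, a bile acid carrier of the gut, lay close to the threshold.

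A smaller group of members acts in transcription, ribosomes and translation. NAA15, the auxiliary subunit of the N-terminal acetyltransferase NatA, was at 161, 187 and 157 TPM in WT and 39.5, 49.95 and 72.0 TPM in DKO1, 3.13-fold lower. RRP15, a ribosome biogenesis factor, was at 47.9, 58.9 and 61.2 TPM in WT and 8.08, 11.5 and 16.8 TPM in DKO1, 4.61-fold lower. DKO1 replicate 3 was the highest DKO1 sample in both. HOXA13, a homeobox gene of the distal gut, was at 5.39, 5.31 and 5.19 TPM in WT and 0.92, 1.78 and 1.02 TPM in DKO1, 4.27-fold lower.

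Relatives of these genes again split. NAA10, the catalytic subunit that NAA15 holds, was at 34.1 ± 8.33 TPM in WT against 35.2 ± 15.8 TPM in DKO1 (adjusted p = 0.955). NAA11, its paralogue, was listed at 0 in all WT samples and stood at 5.53, 5.19 and 4.02 TPM in DKO1, and NAA50, which binds the same complex, fell from 295 ± 21.5 to 184 ± 27.3 TPM (adjusted p = 0.00938). Beside EIF5B, which joins the ribosomal subunits, 2 of 6 other tested initiation factors were lower and 1 higher; all 3 calls, EIF5, EIF2S3 and EIF1, were lost in 8 of 15 alternative settings each.

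**Figure D4:**
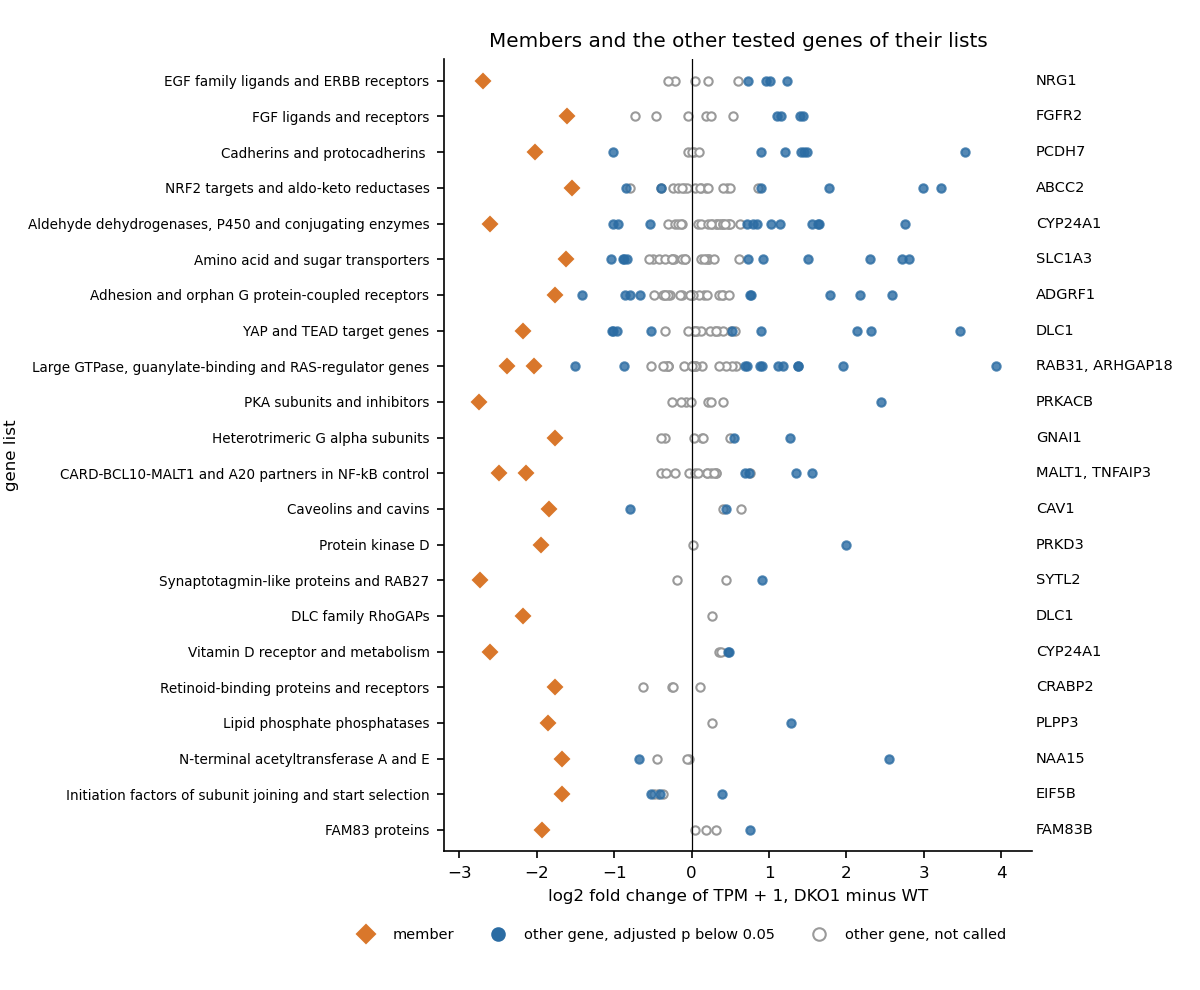
Log2 fold change of TPM + 1, DKO1 minus WT (x axis), for the members (orange diamonds, named at the right) and the other tested genes (circles) of lists that hold a member (rows). Filled circles have an adjusted p below 0.05; members lie to the left because of how they were chosen, and the other genes of the lists lie on both sides of 0, with the highest at 3.93 for RERG.

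Over all 25 lists that were drawn up at the start, 516 genes outside the set were tested, of which 170 (32.9%) were higher and 48 (9.3%) lower, beside 18.8% and 9.6% of all tested genes. Of these lists, 9 hold a member, so many of the 516 listed genes are not relatives of any member. Their lower share was close to that of all genes, which, unlike theirs, includes the members and the genes left out by name. Without WT replicate 1, 2 or 3 the lower calls among these 516 genes numbered 29, 30 and 31. Over all 13604 tested genes they numbered 604, 524 and 550 in the same fits.

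Noncoding genes made up much of the rest. LNCAROD, a long noncoding RNA, was at 18.0, 16.3 and 15.7 TPM in WT and 2.45, 2.97 and 2.41 TPM in DKO1, 6.38-fold lower. LINC02945 was at 8.73, 8.39 and 7.09 TPM in WT and 0.60, 0.45 and 0.67 TPM in DKO1, 14.1-fold lower. MIR503HG, the host transcript of a microRNA cluster on the X chromosome, was 3.2-fold lower, from 11.6 ± 1.89 to 3.63 ± 0.86 TPM. The 8 long noncoding members kept a median of 18.1% of the WT level, the 42 protein-coding members 23.6%. MSRB3-AS1 and ENSG00000257732 overlap genes on the other strand, MSRB3 and TXNRD1, which were lower as well, so their values are uncertain without strand-aware counting.

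Pseudogenes and small RNA genes in the set had unsteady values. COX6CP1 was at 3.07, 10.1 and 2.89 TPM in WT and 0.68, 0 and 0.69 TPM in DKO1. ENSG00000267340 was at 5.51, 2.69 and 2.92 TPM in WT and 0, 0.99 and 0 TPM in DKO1. These 2 and MS4A4A are the 3 members whose WT standard deviation exceeded 33.3% of the mean. Of the 4 such short genes, RNVU1-32 and RN7SL737P make up the remainder, and reads of pseudogenes and repeated small RNAs can be shared with their copies. The 5 remaining protein-coding members include CSTA, a protease inhibitor, which was 4.19-fold lower, from 16.8 ± 1.03 to 4.01 ± 1.36 TPM, and MYH15, a myosin heavy chain, 3.77-fold lower, from 5.82 ± 0.36 to 1.55 ± 0.73 TPM. A further 5 members are identifiers with no entry in the reference gene models; ENSG00000267010 was 9.91-fold lower, from 11.5 ± 1.21 to 1.16 ± 0.36 TPM and ENSG00000155130 3.54-fold lower, from 33.4 ± 5.07 to 9.44 ± 2.31 TPM (mean ± SD, n = 3). The other 3, ENSG00000272327, ENSG00000242180 and ENSG00000179294, stood at 23.2%, 30.5% and 32.1% of WT. GASK1B, a Golgi-associated protein gene, stood at 31.8%.

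Around the threshold the values ran on without a break. Just inside were RN7SL737P at 32.6% of WT, FABP6 at 32.7% and EIF5B at 33.2%. Just outside were SLC5A5, the iodide transporter, at 33.5%, ATP8A1, a phospholipid flippase, at 33.5%, and ASPH, a hydroxylase of calcium-handling proteins, at 33.6%. ASPH was at 297, 332 and 277 TPM in WT and 84.0, 105 and 115 TPM in DKO1, so abundant genes lie on both sides.

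The nearest tested genes on either side of the members were read next, since the rule did not use them. Of 98 neighbours that are not members, 28 (28.6%) were lower in DKO1 and 15 (15.3%) higher, beside 9.6% and 18.8% of all tested genes, and 55 were not called. Their median log2 fold change was −0.27, against 0.07 over all tested genes. With the 16 neighbours whose gene models overlap a member left out, 22 of 82 were lower and 14 higher. Without WT replicate 1 or WT replicate 2, 18 of the 98 were lower, beside 604 and 524 of all 13604 tested genes. DKK1, a secreted Wnt antagonist beside LNCAROD, fell from 1527 ± 67.9 to 576 ± 69.4 TPM, a log2 fold change of −1.41 (SE 0.12, adjusted p = 0.000158). PRKAA2, a catalytic subunit of the AMP-activated kinase beside PLPP3, fell from 13.4 ± 1.30 to 4.59 ± 0.90 TPM, a log2 fold change of −1.37 (SE 0.18, adjusted p = 0.00106). L3MBTL3, a methyl-lysine reader beside ARHGAP18, fell from 33.6 ± 3.04 to 11.8 ± 1.53 TPM, a log2 fold change of −1.43 (SE 0.15, adjusted p = 0.000343). SEMA3C, a secreted semaphorin beside GNAI1, and HOXA11, beside HOXA13, were lower by 1.05 and 0.85 on the log2 scale (adjusted p = 0.00516 and 0.00638).

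Other neighbours rose next to a member. TUSC3, an oligosaccharyltransferase subunit beside DLC1, went from 0.053 ± 0.05 to 13.0 ± 0.73 TPM, a log2 fold change of 3.73 (SE 0.14, adjusted p = 6.5e-06). TGFB2, a TGF-beta ligand beside RRP15, went from 0.207 ± 0.06 to 12.7 ± 3.35 TPM, a log2 fold change of 3.47 (SE 0.20, adjusted p = 2.64e-05). NES, an intermediate filament gene beside CRABP2, rose from 28.5 ± 4.94 to 87.5 ± 13.5 TPM, 1.59 on the log2 scale (adjusted p = 0.000456). The stretch of chromosome 18 around ALPK2 shows both directions: NEDD4L, a ubiquitin ligase on one side, rose from 16.3 ± 2.18 to 70.7 ± 8.81 TPM (adjusted p = 7.28e-05), ALPK2 and MALT1 were lower, and ENSG00000267476, which overlaps MALT1 on the other strand, was listed at 0 in WT and stood at 6.29 ± 2.19 TPM in DKO1 (adjusted p = 0.000134). SUMO1P1, a pseudogene beside CYP24A1, MAGI2-AS3, beside GNAI1, and ENSG00000250038, beside PCDH7, were likewise listed at 0 in all WT samples, with DKO1 means of 5.03, 3.46 and 3.45 TPM.

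**Figure D5:**
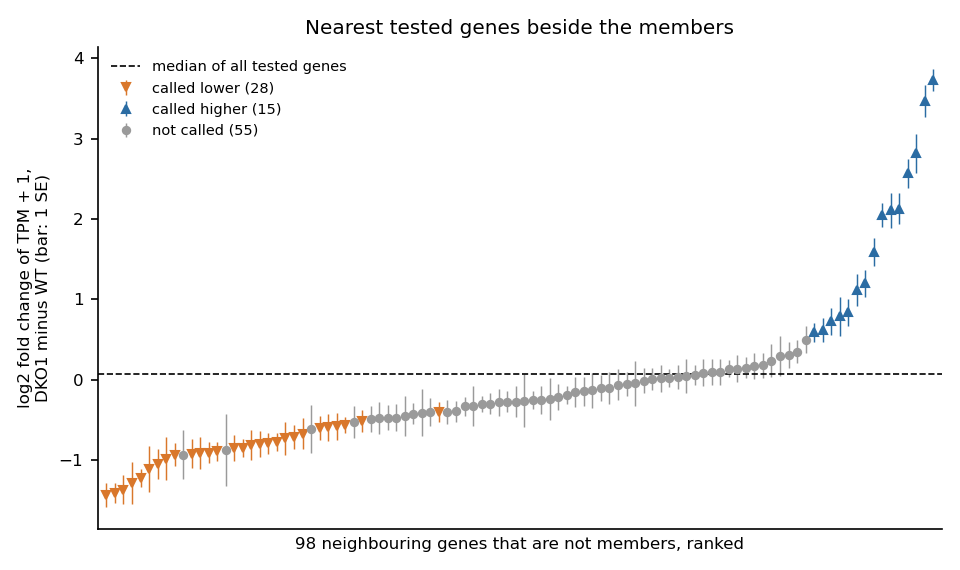
Log2 fold change of TPM + 1, DKO1 minus WT (y axis), of the 98 nearest tested genes beside the members that are not members themselves, ranked along the x axis. Bars are 1 SE, downward triangles mark the 28 called lower, upward triangles the 15 called higher and circles the 55 not called; most points lie below the dashed line, the median of all tested genes, and a few lie far above it.

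The members cover more of the genome than most genes. The 54 members with a gene model in GENCODE 29 spanned a median of 85.9 kb from first to last annotated base, against 34.7 kb over 9632 genes with a WT mean of at least 3 TPM. A span of 100 kb or more was found in 24 members (44.4%) and 19.4% of those genes. Among protein-coding genes alone, the medians were 106 and 37.6 kb and the shares 50% and 20.5%. CSMD3, NRG1 and DLC1 are the longest, at 1210, 1130 and 521 kb, followed by GNAI1 at 458 kb and PCDH7 at 426 kb, while MALT1, CYP24A1 and HOXA13 are shorter than 100 kb. By chromosome, 7 members lay on chromosome 1 (11.9%, against 10.1% of genes at that WT level) and 6 on chromosome 6 (10.2% against 5.36%). Chromosome 18 held 3 (5.08% against 1.57%), among them the neighbours ALPK2 and MALT1. Chromosome 4 held 5 (8.47% against 3.96%), chromosome 8 held 4 (6.78% against 3.4%) and chromosome 17 held 1 (1.69% against 5.62%). These counts are small and were not tested.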

How the data were processed

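RNA of 3 HCT116 WT and 3 DKO1 samples was measured by RNA-seq, and the authors deposited 1 table of TPM per gene, rounded to 2 decimals. Tools named in the submitters' processing notes, without role or order, are RSEM 1.2.21, STAR 2.5.3a, edgeR 3.12.1, FastQC and Trim Galore 0.4.0, with the build hg19 (GRCh37). The sources used here give neither the annotation release nor the use of strand. TPM keeps no depth, so depth is unknown and no counting interval is given. A rise of a few abundant genes lowers the TPM of all others. Columns of other samples numbered 0.

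Members were found by the rule on the deposited TPM. Other genes were tested with limma 3.58.1 in R 4.3.3 on log2(TPM + 1), for human genes of at least 1 TPM in at least 3 of 6 samples (13604 genes), with a variance trend and Benjamini-Hochberg adjustment over all tested genes at 0.05. A fold change on the log2(TPM + 1) scale understates the change of low genes. The fit was tested on simulated data. Names, spans and nearest tested genes came from GENCODE 29, promoters from RefSeq (GRCh38.p14); no coordinates of the 2 builds were mixed. Same-numbered samples deviated together (correlations of 0.35, 0.572 and 0.267 for numbers 1, 2 and 3, against −0.383 to 0.128 between different numbers), so the replicate block was fitted as an alternative.

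Members and gene lists were chosen with earlier results of these data known, and 14 smaller families and the role groups were drawn up after the members were known. Named members were the 20 with the lowest remaining share, the 10 most abundant, up to 5 per role group and those next to the threshold; named relatives were up to 3 called genes per list and direction, and named neighbours were called ones. Members, relatives and neighbours beyond this rule, such as PRKACA, PRKD2, BCL10, CYP27B1 and NAA10, were named for their role after their values were seen. Alternatives were the pseudocount, filters, scaling, variance trend, replicate block, thresholds of the rule and leaving out each sample. Median-ratio scaling was first run with factors from untested genes too; the basis was changed to tested genes after that result was seen, and the first form is kept as an added alternative. No protein sequences were used here. The values of 1 member of the set and its relatives are not reported here.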

Additional observations from a re-analysis of the deposited data

How the results depend on the processing

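The set changed size with its rule. It held 276 genes at 2-fold, 32 at 4-fold, 111 at a WT minimum of 1 TPM and 38 at 10 TPM. With 1 sample left out it held between 55 and 104, the highest number without DKO1 replicate 3. Its members changed too. Without DKO1 replicate 1, 50 of the 59 stayed, and EIF5B, NAA15, ITPRID2, ABCC2, LINC00640 and MIR503HG were among those lost. Without DKO1 replicate 2, 51 stayed, and without DKO1 replicate 3 all 59. The choice at 2-fold was not repeated with a pair left out. Of the genes chosen by the unchanged rule without pairs 1, 2 and 3, 94.2%, 87.7% and 61.7% stood at 50% of WT or less in the left-out pair. With no filter, 4400 of 29487 genes were higher and 1098 lower, and the neighbours, then drawn from more genes, counted 14 lower and 5 higher. With a mean of at least 5 TPM, 1145 of 9051 genes were higher and 1077 lower. In that setting 69 listed genes and 7 neighbours were higher and 18 neighbours lower. Since these 2 settings test other numbers of genes, their counts cannot be set directly against those of the main fit. Quantile normalization gave 79 lower listed genes, beside 1939 of all 13604 tested genes. Median-ratio factors from untested genes too, an added alternative, gave 2092 lower of 13497 genes and a set of 78. Leaving out 1 sample gave 524 to 2079 lower and 1705 to 2842 higher genes. Among the listed genes outside the set it gave 29 to 64 lower and 127 to 203 higher, and among neighbours 18 to 34 lower and 10 to 15 higher. The causes were not tested. With the replicate block, which pairs the samples by number, 1817 genes were lower and 3053 higher, and of 134 named calls only that of RXRA was lost; quantile normalization lost 29, and leaving out WT replicate 2 or 3 lost 33 each. None of the 134 named genes changed direction under these alternatives. The balance of all calls did: quantile normalization gave 1817 higher and 1939 lower genes, and median-ratio factors from untested genes too gave 2006 higher, with medians over all tested genes of −0.066 and −0.059 against 0.073 on the log2 scale. Leaving out mitochondrial and spike-in rows, chosen for the test after seeing the data, gave a set of 55, of which 52 are members. The members lost there were EIF5B, NAA15, FABP6, GASK1B, MIR503HG, RN7SL737P and ENSG00000179294. Depth, which TPM does not keep, limits what can be said of genes near 0.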
